A study of Mus musculus with 30 samples.

Results

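The effect of pNaKtide on gene expression was compared between 3T3-L1 adipocytes given indoxyl sulphate (IS) and 3T3-L1 adipocytes given oxidized LDL (oxLDL). The comparison used 20 of the 30 cell culture libraries of the series, chosen by their labels as the 5 libraries each of the groups IS (100 µM), IS + pNaKtide (100 µM and 0.7 µM), oxLDL (50 µg/mL) and oxLDL + pNaKtide (50 µg/mL and 0.7 µM). The quantity tested for each gene was a difference of differences on the log2 scale, namely the change with pNaKtide under IS minus the change with pNaKtide under oxLDL. The other 10 libraries, of control cells and of cells given pNaKtide alone, belong to no term of this contrast. 3T3-L1 is a mouse preadipocyte line that is turned into adipocytes by adipogenic medium, and all 4 groups shared this line and medium. It is 1 cell line, without the macrophages, vessels and stroma of fat. The labels give 5 days of treatment and the methods 2 days. The labels name 3T3 cells as the source, although their text on extraction speaks of adipose tissue.

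The Na,K-ATPase is the sodium pump of the plasma membrane and also binds the tyrosine kinase Src, and oxidants can set off signaling through this complex. pNaKtide is a cell-permeable peptide derived from the pump and was designed to hold Src inactive and so block that signaling. IS is a uremic toxin made by the liver from a product of gut bacteria, cleared by the kidney, and known to act through the aryl hydrocarbon receptor and oxidants. OxLDL is a lipoprotein particle with oxidized lipids that enters cells through scavenger receptors such as CD36. In adipocytes, oxidants from either agent are known to alter adipokines and lipid storage. The contrast asks whether the response to the same dose of pNaKtide depended on which of these agents was present.

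The libraries held from 6945498 to 15159877 reads assigned to genes. The cells had the markers of adipocytes, with Adipoq, Fabp4, Plin1, Cidec, Lpl, Cfd, Pparg and Cebpa at 130 CPM (TMM-normalized counts per 1000000 reads) or more in every library. Of the 6 macrophage markers Ptprc and Itgam had no count in any library, Adgre1 had at most 0.123 CPM and Csf1r at most 0.436 CPM, while Lyz2 had 0.856 to 2.13 CPM and Cd68 3.52 to 6.16 CPM. Their summed level was 5.11 to 7.45 CPM with IS, 5.92 to 8.21 CPM with IS + pNaKtide, 4.85 to 7.27 CPM with oxLDL and 5.2 to 7.36 CPM with oxLDL + pNaKtide. Of the 4 endothelial markers Cdh5, Kdr and Tek had at most 0.122 CPM and Pecam1 at most 0.616 CPM. A library of the IS group stood apart. On the first principal component of log2 CPM, which held 66.7% of the variance over 12893 genes, IS replicate 4 had a score of 36.1, against -29.8 to -15.9 in the rest of its group. The oxLDL + pNaKtide libraries scored from 23.1 to 78.0, so that IS replicate 4 lay inside their range, and the highest of these was oxLDL + pNaKtide replicate 4. The IS + pNaKtide libraries (-10.7 to 5.35) and the oxLDL libraries (-34.9 to -7.35) lay below them. The counts of a library also depended on the GC content of the transcripts, and IS replicate 4 stood apart from its group in that too. IS replicate 4 was kept, and values without it are given for the counts, for the lists whose counts it moved most and for the calls that it decided.

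**Figure D1:**
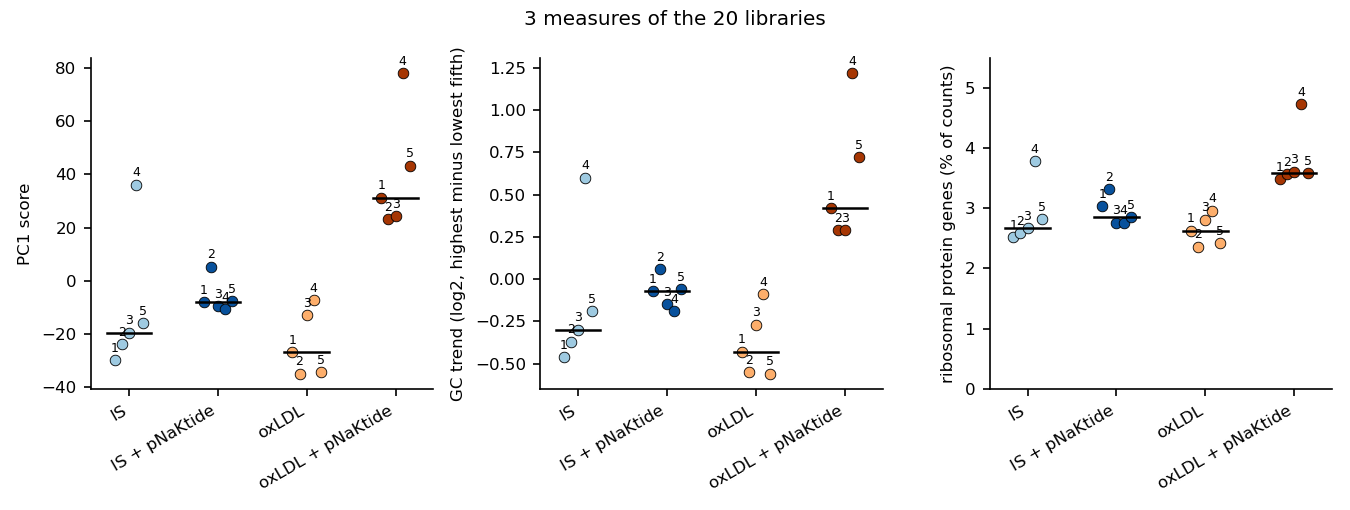
Score on the first principal component, GC trend (median log2 deviation of the genes richest in GC minus that of the genes poorest in GC) and percent of counts on cytosolic ribosomal protein genes in each of the 20 libraries, with the replicate number at each point and the group median as a bar. IS replicate 4 (score 36.1) lies among the oxLDL + pNaKtide libraries and away from the other 4 IS libraries, and oxLDL + pNaKtide replicate 4 (score 78.0) is the highest of all.

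The response to pNaKtide differed between the agents for 6381 of 19338 genes tested, or 33.0%, with the quasi-likelihood test of edgeR and a threshold of 0.1 on the p-value after adjustment by Benjamini and Hochberg (BH). The difference was positive (higher under IS) for 3177 genes and negative (lower under IS) for 3204 genes, and the unadjusted p-value was below 0.05 for 7232 genes (37.4%). The arms of the contrast differed in their counts. Under oxLDL, 4663 genes rose and 5282 fell with pNaKtide, which was 51.4% of the genes tested (51.2% had an unadjusted p-value below 0.05). The balance of directions depended on the scaling, with 2750 genes higher and 7828 lower under oxLDL when libraries were scaled by library size alone. Under IS no gene passed the threshold, while the unadjusted p-value was below 0.05 for 576 genes (2.98%) and DESeq2 called 12 genes, all of them higher. The count in this arm depended on the tool, as limma voom with weights for the quality of each library called 494 genes higher and 482 lower there. The libraries with and without pNaKtide did not overlap for 5778 genes (29.9%) under oxLDL and for 155 genes (0.802%) under IS. The median absolute change of the 12640 genes whose mean log2 CPM reached 1 was 0.39 under oxLDL and 0.06 under IS on the log2 scale.

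The genes with a difference were mostly genes that moved under oxLDL. The change under oxLDL is a term of the contrast and no gene passed under IS, so that the shares below follow in part from the contrast. Of all genes tested, 27.3% fell and 24.1% rose with pNaKtide under oxLDL. Of the 3177 genes with a positive difference, 3117 (98.1%) fell with pNaKtide under oxLDL, with a median change of -0.68 under oxLDL and -0.04 under IS. Of the 3204 genes with a negative difference, 3129 (97.7%) rose under oxLDL, with medians of 0.59 under oxLDL and 0.00 under IS. The fitted change under IS had the sign of that under oxLDL for 2098 of the first and 1649 of the second group of genes. Differences beyond 1 on the log2 scale, or 2-fold, numbered 518 positive and 342 negative. Leaving out IS replicate 4 left 5204 genes called, 27.0% of those then tested, and the same direction was called for 2629 and 2554 of the genes above. The median changes under IS were then -0.13 and 0.13, and the change under IS had the sign of that under oxLDL for 2246 of the 2629 and 2250 of the 2554 genes. In the IS arm without that library still no gene passed the threshold with edgeR, but the unadjusted p-value was below 0.05 for 2035 genes. Without both replicates numbered 4 that stood apart, 127 genes passed in the IS arm and 4329 in the contrast. The labels do not say that the 5 libraries of a group came from separate cultures, so that the p-values measure the spread between these samples.

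**Figure D2:**
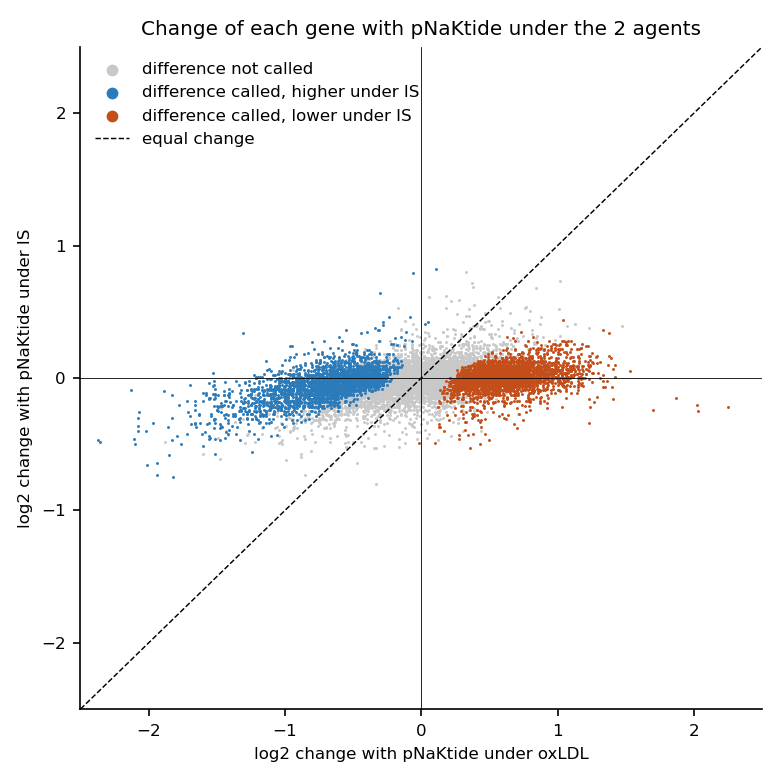
Log2 change with pNaKtide under oxLDL (horizontal axis) and under IS (vertical axis) for genes whose mean log2 CPM reached 1, colored by whether the difference between the changes was called. The called genes lie along the horizontal axis, with changes under IS near 0 and changes under oxLDL on either side of it, far from the dashed line of equal change.

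Across the 12640 genes the changes in the 2 arms, which share no library, had a Pearson correlation of 0.41 (Spearman 0.41), with a slope of 0.09 of the change under IS on that under oxLDL. Without IS replicate 4 the correlation was 0.78 (Spearman 0.81) and the slope 0.25, and the median absolute change under IS was 0.11. These correlations are across genes, which are not independent replicates, and the points share base composition. They are given as a description only, and their size depended on 1 library.

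Between the agents, few genes were called without pNaKtide and many with it. Without pNaKtide, 1 gene was higher and 2 genes were lower with IS than with oxLDL (0.00517% and 0.0103%, together 0.0155% of all genes, while the unadjusted p-value was below 0.05 for 1166 genes or 6.03%). DESeq2 called 19 genes higher and 31 lower here, and limma voom with quality weights 73 and 99. With pNaKtide, 3775 genes were higher and 3492 lower with IS than with oxLDL (37.6%, and 40.4% had an unadjusted p-value below 0.05). Scaled by library size alone, 6461 were higher and 1733 lower, and with offsets for GC content and length 2509 were higher and 3112 lower. For the genes with a positive difference the median of IS minus oxLDL was -0.13 without pNaKtide and 0.51 with it, and for those with a negative difference 0.17 and -0.43. The 3 genes called without pNaKtide are named after their values were seen. Adamts5, an aggrecanase of the matrix, had 14.9 ± 1.82 CPM with IS and 23.5 ± 3.38 CPM with oxLDL (SD, n = 5), a log2 difference of -0.66 (SE 0.12). With pNaKtide it had 15.4 ± 1.06 CPM under IS and 16.1 ± 2.68 CPM under oxLDL, where it fell by 0.55 on the log2 scale. Rasd1, a small G protein induced by glucocorticoids, was lower with IS by a log2 value of -0.80, and Sptlc3, a subunit of serine palmitoyltransferase in sphingolipid synthesis, was higher by 0.71. The adjusted p-value of all 3 was 0.0569 (edgeR), and at a threshold of 0.05 none passed. None of the genes in this comparison passed either when IS replicate 1, 2 or 3 or oxLDL replicate 1, 2, 4 or 5 was left out.

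The 10 genes named for a large positive difference all fell with pNaKtide under oxLDL. The rule for named genes asked for a call also without IS replicate 4 and for groups that did not overlap in an arm. It left out predicted, mitochondrial and Zfp genes and those whose mean log2 CPM did not reach 1. By this rule 1742 genes qualified, and the 10 with the largest value were Ogn, Lpar4, Arhgap5, Aspn, Iigp1, Gdap10, Trim23, Gprin3, Zbtb26 and Dsel (1.47 to 2.05). Ogn (osteoglycin, ENSMUSG00000021390, chromosome 13 of GRCm38, 49608046 to 49624501) is a small leucine-rich proteoglycan of the matrix. It had 8.76, 9.29, 5.92, 3.78 and 13.6 CPM with IS and 9.6, 12.1, 5.62, 6.09 and 6.35 CPM with IS + pNaKtide. It had 18.5, 15.2, 11.7, 11 and 14.1 CPM with oxLDL and 2.13, 4.01, 5.11, 2.4 and 2.03 CPM with oxLDL + pNaKtide. The groups overlapped fully under IS and not at all under oxLDL, where every treated library lay below every other. The change with pNaKtide was -0.09 (SE 0.27) under IS and -2.13 (SE 0.31) under oxLDL, a difference of 2.05 (SE 0.41, adjusted p = 0.00894, edgeR). Aspn (asporin, chromosome 13, 49544443 to 49567565) encodes a related proteoglycan and is its neighbor on the chromosome. Aspn had 76.4 CPM in IS replicate 4 and 182 to 191 CPM in the other IS libraries, against 112 to 151 CPM with IS + pNaKtide. It had 166 to 297 CPM with oxLDL and 38.9 to 90.6 CPM with oxLDL + pNaKtide, a difference of 1.62 (SE 0.32). Lpar4, a receptor for lysophosphatidic acid, had 10.9 ± 3.25 CPM with oxLDL and 2.98 ± 1.08 CPM with oxLDL + pNaKtide, but 9.38 ± 2.79 and 8.69 ± 0.813 CPM under IS. Arhgap5, which switches off small GTPases, had a difference of 1.66, and its 5 oxLDL libraries (60.2 to 102 CPM) lay above its 5 oxLDL + pNaKtide libraries (9.76 to 36 CPM). Trim23, a ubiquitin ligase, Dsel, an epimerase of dermatan sulfate, and Zbtb26, a zinc finger protein, had differences of 1.51, 1.47 and 1.49. Iigp1, an interferon-induced GTPase, was the one of the 10 in which the IS arm also moved most, with a change of -0.40 (SE 0.18) under IS and -2.02 (SE 0.24) under oxLDL. The adjusted p-values of the 10 were 0.00894 to 0.0192 from edgeR, and each kept its call with any 1 library left out.

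The 10 genes named for a large negative difference all rose with pNaKtide under oxLDL. Here 1533 genes qualified, and the 10 named were Cenpm, Scand1, Hist2h2ac, H2afj, Sez6l2, Tmem160, Hist1h2al, Cisd3, Yjefn3 and Reep6 (-1.58 to -1.27). Scand1 (ENSMUSG00000046229, chromosome 2, 156311847 to 156312704), whose product has the SCAN domain of certain transcription factors, had 22.3, 26, 26.2, 60.5 and 30.4 CPM with IS and 31.9, 27.8, 30.6, 25.4 and 31.5 CPM with IS + pNaKtide. It had 19.9, 21.4, 27.2, 31.1 and 22.7 CPM with oxLDL and 53.5, 48, 52.9, 97.2 and 75 CPM with oxLDL + pNaKtide. All oxLDL + pNaKtide libraries lay above all oxLDL libraries, and IS replicate 4 was the only IS library at their level. The difference was -1.57 (SE 0.31, adjusted p = 0.00894, edgeR) and -1.25 without IS replicate 4. H2afj, a histone H2A variant on chromosome 6, had 147 to 280 CPM with oxLDL + pNaKtide, 70.1 to 93.9 CPM with oxLDL and 85.6 to 92.5 CPM with IS + pNaKtide. In the IS group it had 172 CPM in replicate 4 and 71 to 84.1 CPM in the others. Cisd3, an iron-sulfur protein of mitochondria, averaged 11.3 ± 2.14 CPM in the oxLDL + pNaKtide libraries and 4.34 ± 1.05 CPM in the oxLDL libraries, against 5.41 ± 0.615 and 5.61 ± 1.89 CPM with and without pNaKtide under IS. Cenpm, a centromere protein, Reep6, which shapes the endoplasmic reticulum, and Tmem160 had differences of -1.58, -1.27 and -1.40. Hist2h2ac and Hist1h2al belong to a family of near-identical histone genes, and the second is annotated as a processed pseudogene, so that the counting could divide reads among copies and both values are uncertain. The adjusted p-values of these 10 were 0.00894 to 0.011 from edgeR, and again each kept its call with any 1 library left out.

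**Figure D3:**
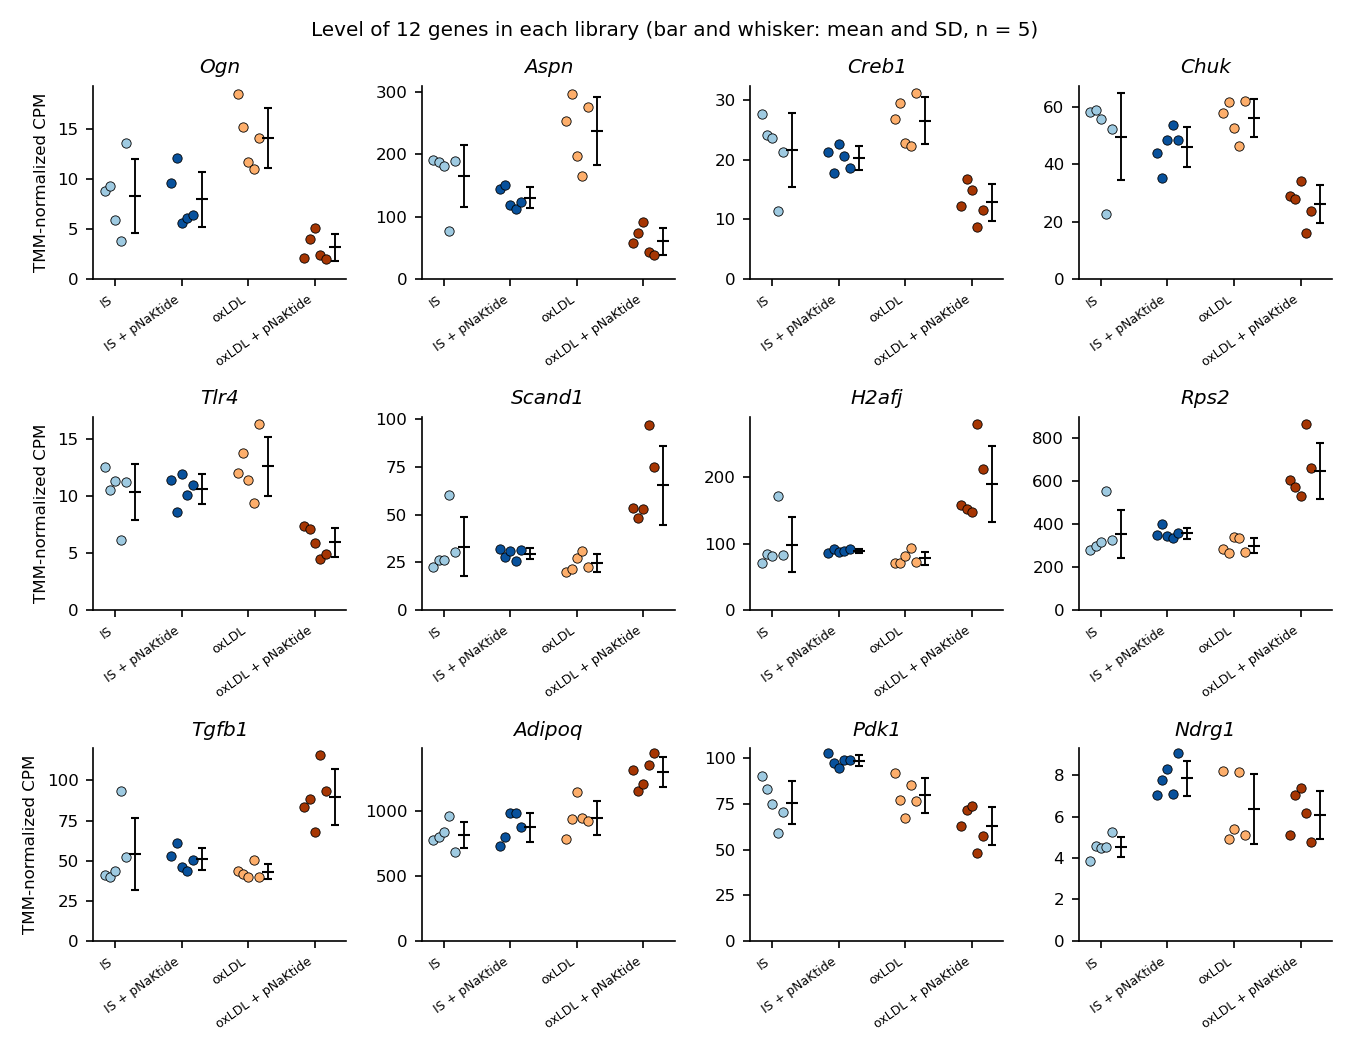
TMM-normalized CPM of 12 genes in each library of the 4 groups, with the mean and SD (n = 5) beside the points; each vertical axis starts at 0. Ogn, Aspn, Creb1, Chuk and Tlr4 are low, and Scand1, H2afj, Rps2, Tgfb1 and Adipoq high, in the oxLDL + pNaKtide libraries, while Pdk1 and Ndrg1 are highest or raised with IS + pNaKtide.

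Among the gene lists, the cytosolic ribosomal proteins had the largest share of genes called, 88.6%. A list is described by its counts of genes called and its median difference, to be read beside 16.4% of all genes with a positive call, 16.6% with a negative call and a median of 0.04. A gene said to lead a list is the called gene of smallest p in its direction, whatever the size of its difference. Of 79 cytosolic ribosomal protein genes, which build both subunits of the ribosome, 70 had a negative difference and none a positive one. Their median change with pNaKtide was 0.75 under oxLDL, where 76 rose, and 0.03 under IS, and the median difference was -0.69. Without IS replicate 4 the median difference was -0.51 with 64 genes called. Rps2 (chromosome 17, 24718116 to 24721929), with the smallest p of the list, had 529 to 866 CPM with oxLDL + pNaKtide and 265 to 339 CPM with oxLDL. Under IS it had 332 to 399 CPM with pNaKtide and 276 to 553 CPM without, the highest being replicate 4. Rps2 differed by -1.10 (SE 0.22, adjusted p = 0.00894, edgeR). Ribosomal protein genes have many near-identical pseudogenes, and the sources used here do not give the treatment of reads shared with them. The share of all counts that fell on this list was 3.49% to 4.73% with oxLDL + pNaKtide, 2.36% to 2.96% with oxLDL, 2.76% to 3.32% with IS + pNaKtide and 2.52% to 3.78% with IS.

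The nuclear genes of respiratory complex I, the entry point of electrons from NADH, had 28 negative and 1 positive difference of 37 genes, with a median of -0.48. Those of complexes II to V had 25 negative and no positive difference of 39, with a median of -0.37. Ndufa3, a subunit of complex I, had 113 to 185 CPM with oxLDL + pNaKtide and 57.1 to 76.1 CPM with oxLDL, a difference of -1.08 (SE 0.20), and Cox5b, a subunit of complex IV, differed by -0.91 (SE 0.18). Ndufs1, the large iron-sulfur subunit of complex I, went the other way, with a difference of 0.59. The 13 transcripts of the mitochondrial genome, which encode the partners of these subunits, had 1 negative difference (mt-Co1, -0.49, lost without IS replicate 4) and a median of -0.16. In the TCA cycle list 5 genes differed in each direction, led by Idh1 (0.63) and Ogdh (-0.66). The tests here are edgeR's, over all genes.

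Several other lists had more negative than positive differences. Of 32 Nrf2 targets and antioxidant enzymes, 17 were negative and 4 positive, with a median of -0.39. With scaling by library size alone, 13 of them were negative and 11 positive, with a median of -0.16. Keap1, the repressor of Nrf2, was at -0.49 (SE 0.12), and Gclc, which makes glutathione's precursor, at 0.53 (SE 0.15). Of 12 cholesterol efflux genes and LXR targets, 7 were negative and 2 positive (median -0.53). Nr1h2, the receptor LXRβ itself, differed by -0.81, while the sterol transporter Abcg1 fell under oxLDL and differed by 0.57. The proteasome had 17 negative (Psmc2, -0.45) and 1 positive (Psmc6, 0.71) of 31 genes, and lysosome and autophagy 14 negative and 6 positive of 32. With scaling by library size alone the proteasome had 9 negative and 5 positive, and lysosome and autophagy 10 negative and 9 positive. In that list Map1lc3a, a component of autophagosomes, had 110 to 169 CPM with oxLDL + pNaKtide, 53.8 to 71.9 CPM with oxLDL, 69.7 to 88.1 CPM with IS + pNaKtide and 60.4 to 113 CPM with IS, a difference of -1.02 (SE 0.20). Lamp2, a lysosomal membrane protein, differed by 0.81, but by 0.10, with its call lost, when offsets for the trends of each library over GC content and transcript length were put into the fit (the offsets). Of 15 ATF4 targets in amino acid synthesis, 6 were negative, led by Phgdh (-0.70), the first enzyme of serine synthesis, and Cebpg was positive at 0.49, which lost its call without IS replicate 4.

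The adipocyte genes had 13 negative differences and 1 positive difference of 34 (median -0.22), and their median change was 0.30 under oxLDL and 0.07 under IS. In bulk RNA a change of fat cell genes from more such cells and from more of that RNA per cell cannot be told apart. Dgat1, which completes triglyceride synthesis, differed by -0.62 (SE 0.14), and Cd36, the fatty acid and oxLDL receptor, by 0.62 (SE 0.19), but by -0.32 with the offsets, past the threshold in the opposite direction. The summed level of the 8 adipocyte markers was 15500 to 17300 CPM with oxLDL + pNaKtide and 12300 to 16400 CPM with oxLDL, against 12000 to 13800 and 10800 to 13900 CPM with and without pNaKtide under IS. These markers did not move alike. The log2 change with pNaKtide under oxLDL was 0.46 for Adipoq, 0.36 for Cebpa and 0.17 for Plin1. It was 0.16 for Pparg, 0.04 for Fabp4 and 0.02 for Lpl. Cidec, a large part of the sum, had 3750 to 7130 CPM over the 20 libraries. The 5 preadipocyte markers summed to 297 to 484 CPM with oxLDL + pNaKtide and 286 to 346 CPM with oxLDL. Under IS these 5 markers summed to 244 to 345 CPM with pNaKtide and 257 to 426 CPM without. The part of cell composition in the differences was not tested. In cholesterol synthesis the differences went both ways, 9 negative (Fdps, -0.64) and 6 positive (Sc5d, 0.83) of 23, against 5 negative and 11 positive with scaling by library size alone.

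**Figure D4:**
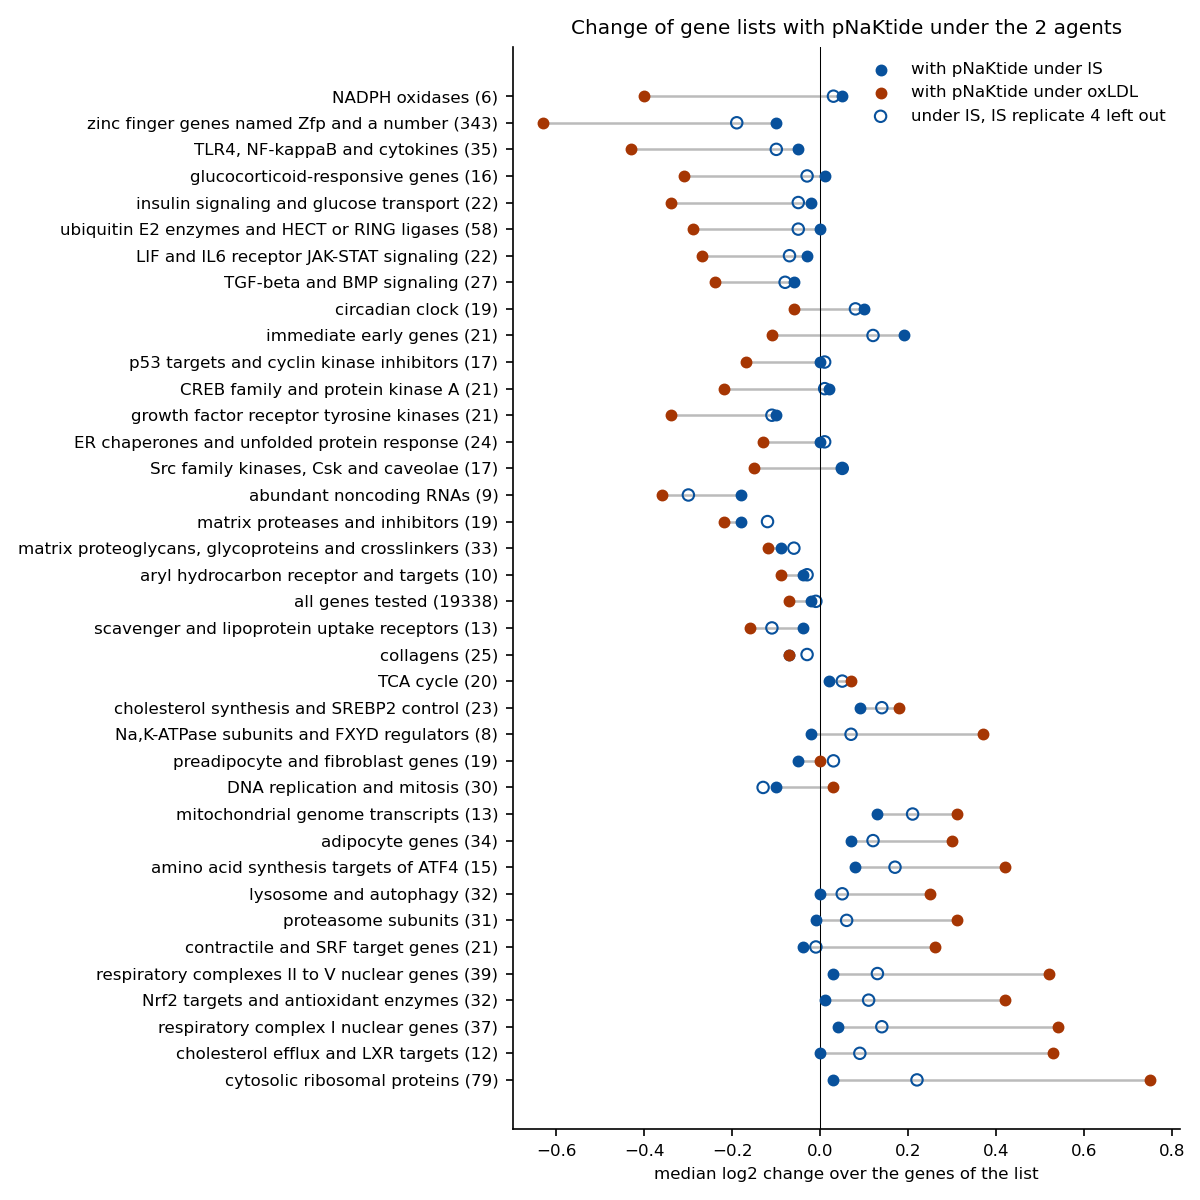
Median log2 change with pNaKtide over each gene list under IS and under oxLDL, with the number of genes tested in parentheses, ordered by the median difference; open circles give the IS medians with IS replicate 4 left out. The oxLDL medians run from -0.63 for the Zfp genes to 0.75 for ribosomal proteins. The IS medians stay between -0.18 and 0.19 over the 20 libraries, and between -0.30 and 0.22 with IS replicate 4 left out.

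Lists of signaling and gene regulation had more positive than negative differences. Of 343 zinc finger genes named Zfp and a number, which encode mostly DNA-binding repressors, 144 were positive and 19 negative, with medians of -0.63 under oxLDL, -0.10 under IS and 0.53 for the difference. Many Zfp genes, Zfp993 (1.65) and Zfp771 (-0.85) among those with the smallest p, have near-identical relatives in gene families and are uncertain for that reason. Of 35 genes of TLR4, NF-κB and cytokines, 14 were positive and 4 negative (median 0.37). Of its positive genes Tnfaip3 (0.83, SE 0.15), a brake on NF-κB, had the smallest p but not the largest value, and Nfkb2 was negative at -0.51. LIF and IL6 receptor JAK-STAT genes had 9 positive and no negative difference of 22, with Socs6, an inhibitor of receptor signaling, at 0.81. The CREB family and protein kinase A had 7 positive and none negative of 21 (2 positive and a median of 0.06 with the offsets). Growth factor receptor tyrosine kinases had 6 positive, such as Fgfr2 (0.51), and none negative of 21. The shares called in these 2 lists, 33.3% and 28.6%, stand beside 33.0% of all genes tested. In TGFβ and BMP signaling 10 genes were positive and 2 negative of 27. Smad1, which carries BMP signals, differed by 0.84, but the ligand Tgfb1 went the other way. Tgfb1 had 68 to 116 CPM with oxLDL + pNaKtide and 39.5 to 50.6 CPM with oxLDL, against 43.5 to 60.9 CPM with IS + pNaKtide. With IS alone it had 93.5 CPM in replicate 4 and 40 to 52.2 CPM in the others, and the difference was -1.14 (SE 0.25).

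Glucocorticoid-responsive genes had 7 positive and 2 negative differences of 16, with the receptor Nr3c1 at 0.86 and the metallothionein Mt1 at -0.73. Ubiquitin conjugating enzymes and ligases had 24 positive and 9 negative of 58, with the ligase Itch at 0.77 (0.16 with the offsets, its call lost) and the conjugating enzyme Ube2l3 at -0.48. With the offsets 10 genes of the ubiquitin list were positive and 10 negative. Insulin signaling and glucose transport had 6 positive and 3 negative of 22, among them the kinase subunit Pik3ca (0.62) and the kinase Akt2 (-0.51), both of which lost their call with the offsets (-0.24 and -0.21). ER chaperones and the unfolded protein response had 9 positive, led by the stress kinase Eif2ak3 (0.70), and 3 negative, such as Xbp1 (-0.36), of 24. P53 targets and cyclin kinase inhibitors had 5 positive and 2 negative of 17. The inhibitor Cdkn1b had 10.1 to 18.4 CPM with oxLDL + pNaKtide and 30 to 33.2 CPM with oxLDL, a difference of 1.09 (SE 0.21), and Phlda3 was at -0.54. The clock genes had 5 positive and 2 negative of 19 (Dbp, -0.80), and the immediate early genes 5 positive and 1 negative of 21 (Klf6, 0.93, and Jund, -0.94).

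The targets of pNaKtide and of both agents were not uniform. The share of genes called was 25% for Na,K-ATPase genes, 47.1% for Src family kinases and caveolae and 50% for aryl hydrocarbon receptor genes. It was 30.8% for scavenger and lipoprotein receptors and 16.7% for NADPH oxidases, against 33.0% of all genes tested. Of 8 Na,K-ATPase subunits and regulators tested, 2 were negative and none positive, against 1 negative and 1 positive with the offsets. Of 17 genes of Src family kinases and caveolae, 4 were positive and 4 negative. Yes1, a Src family kinase, had 18.4 to 29.2 CPM with oxLDL and 5.31 to 11.1 CPM with oxLDL + pNaKtide, against 9.49 to 24.1 and 15.9 to 21.1 CPM without and with pNaKtide under IS, a difference of 1.46 (SE 0.28). Src itself had 25.3 to 31.3 CPM with oxLDL and 21.2 to 26.2 CPM with oxLDL + pNaKtide, and 23 to 26 and 23.4 to 27.8 CPM under IS. Its groups overlapped in both arms, and the difference was 0.36 (SE 0.11, adjusted p = 0.0262, edgeR). Cavin3, a coat protein of caveolae, was at -0.64. Aryl hydrocarbon receptor genes, a pathway of IS, had 3 positive and 2 negative differences of 10, with the repressor Tiparp at 0.96. Scavenger and lipoprotein receptors, through which oxLDL enters, had 3 positive (Vldlr, 0.54) and 1 negative (Scarb1, -0.46) of 13. NADPH oxidases had 1 positive of 6, Nox4 at 0.74 (SE 0.23), which makes hydrogen peroxide and which lost its call with the offsets (0.10). The only call in this list with the offsets was 1 negative difference.

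The structural genes of the matrix and the cytoskeleton also went both ways. Collagens had 3 positive (Col4a5, 0.85) and 4 negative (Col6a2, -0.80) differences of 25, and matrix proteoglycans and glycoproteins 7 positive and 4 negative (Prelp, -0.64) of 33. Matrix proteases had 5 positive (Adamts1, 0.61) and 2 negative (Timp1, -0.72) of 19. Contractile genes had 1 positive (Cald1, 0.50) and 5 negative (Zyx, -0.59) of 21, against 1 negative without IS replicate 4, none with the offsets, and 4 positive and 1 negative with scaling by library size alone. Preadipocyte and fibroblast genes had 5 (Ebf2, 0.87) and 4 (S100a4, -0.49) of 19, and replication and mitosis genes 2 (Top2a, 0.63) and 6 (Birc5, -0.62) of 30, against 7 and 0 with scaling by library size alone. Of 9 abundant noncoding RNAs, 2 were negative. One was Rpph1 (-5.41, SE 1.82), the RNA of RNase P, which reached 16.8 CPM in replicate 1 of oxLDL + pNaKtide while no other library was above 1.46 CPM, and its call was lost without IS replicate 4.

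Of 18 genes named because they bear on the study's questions, 6 passed the test of the difference, a share close to the 33.0% of all genes. Creb1 (ENSMUSG00000025958, chromosome 1, 64532645 to 64604548), a transcription factor of cAMP signaling, had 12.3, 16.7, 15, 8.73 and 11.6 CPM with oxLDL + pNaKtide and 26.9, 29.5, 22.9, 22.3 and 31.3 CPM with oxLDL. It had 21.4, 17.8, 22.7, 20.7 and 18.7 CPM with IS + pNaKtide and 27.8, 24.2, 23.6, 11.4 and 21.3 CPM with IS. The oxLDL groups did not overlap, and the IS + pNaKtide libraries lay within the range of the IS libraries. The difference was 0.93 (SE 0.25, adjusted p = 0.0134, edgeR). Chuk, the kinase IKKα of NF-κB signaling, averaged 26.2 ± 6.76 CPM in the oxLDL + pNaKtide libraries and 56.3 ± 6.8 CPM in the oxLDL libraries, against 46.1 ± 6.97 and 49.7 ± 15.3 CPM under IS, a difference of 0.98 (SE 0.27). Tlr4, the receptor for endotoxin, fell by 1.08 on the log2 scale under oxLDL and had a change of 0.02 (SE 0.16) under IS, a difference of 1.10 (SE 0.24). Cdkn1a, the cyclin kinase inhibitor p21, averaged 326 ± 33.2 CPM in the oxLDL + pNaKtide libraries and 246 ± 25.1 CPM in the oxLDL libraries, with 252 ± 10.9 and 254 ± 36 CPM under IS, a difference of -0.42 (SE 0.14). Cd36 and Src, given above, were the other 2. Of those that did not pass, Adipoq (adiponectin) rose by 0.46 under oxLDL and had a change of 0.11 (SE 0.11) under IS, but the difference, -0.35 (SE 0.16), had an adjusted p of 0.111. Adipoq passed in 6 of 20 fits with 1 library left out and in 6 of 14 other alternatives. Ccl2, a chemokine, had a difference of 0.93 (SE 0.46, adjusted p = 0.136), at 0.841 to 2.01 CPM on average per group, and passed in 2 of 20 and 4 of 13 such fits. Pparg, Cebpa, Plin1, Lpl and Fabp4 had differences of -0.12, -0.20, -0.09, 0.05 and 0.02 with SEs of 0.10 to 0.15, of which Pparg (-0.39, adjusted p = 0.0286) and Fabp4 (-0.77, adjusted p = 0.0186) passed with the offsets for GC content and length, and Prkca was at 0.23 (SE 0.14). Lep, Nos3 and Il6 had means of at most 1.24 CPM in every group and SEs of 0.63 to 1.68 for the difference, and none passed. Nos3, an enzyme that makes nitric oxide, had a change of 1.25 (SE 0.41, adjusted p = 0.0147) under oxLDL and 0.94 (SE 0.44, unadjusted p = 0.0425) under IS, a difference of -0.30 (SE 0.63). All these tests are edgeR's with BH adjustment.

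Genes were also taken by their signs and sizes in the arms, so that their values describe the choice and are no test of it. Opposite signs in the arms with an unadjusted p-value below 0.05 under each agent, with the level and symbol conditions of the rule, were found for 9 called genes, where 2.98% of all genes were below 0.05 under IS. The largest differences among the 9 were those of Nudt17, Epm2a, Pdk1, Bhlhe41 and Tonsl. Pdk1, a kinase that turns off pyruvate dehydrogenase, had 103, 97.6, 94.9, 99.3 and 99.1 CPM with IS + pNaKtide and 90.3, 83.3, 75.2, 59.3 and 70.9 CPM with IS. It had 63.1, 72, 73.9, 48.1 and 57.5 CPM with oxLDL + pNaKtide and 92, 77.1, 67.2, 85.5 and 76.7 CPM with oxLDL. All libraries with pNaKtide lay above those without under IS, and the groups overlapped under oxLDL. The change was 0.38 (SE 0.11) under IS and -0.34 (SE 0.11) under oxLDL, and the difference 0.72 (SE 0.16). Bhlhe41, a repressor of the circadian clock, had 9.51 ± 0.913 and 7.05 ± 0.606 CPM with and without pNaKtide under IS and 7.77 ± 1.41 and 9.56 ± 0.852 CPM under oxLDL. Epm2a (laforin, a glycogen phosphatase) had a difference of 0.75, and Nudt17 and Tonsl, a DNA repair protein, had differences of -0.88 and -0.65, the latter lost with the offsets (-0.26). None of these genes passed the adjusted threshold in the IS arm.

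The change under IS was larger in size than that under oxLDL for 40 genes with a positive and 52 with a negative difference. Of these, 35 met the level and symbol conditions, and no p-value under IS was asked for. Ndrg1, a gene known to respond to hypoxia and metals, had 7.04 to 9.05 CPM with IS + pNaKtide and 3.84 to 5.23 CPM with IS, with no overlap. Under oxLDL its libraries with pNaKtide (4.77 to 7.39 CPM) lay within the range of those without (4.93 to 8.21 CPM) but for the lowest. The change was 0.79 (SE 0.16, adjusted p = 0.25, edgeR) under IS and -0.06 (SE 0.16) under oxLDL, a difference of 0.85 (SE 0.23). With IS replicate 4 left out the change under IS was also 0.79. Pdk1, Nudt17, Pimreg (-0.77, lost without IS replicate 4) and Ear1 (-0.71) were the others named by this rule. Ear1 is 1 of a family of near-identical ribonuclease genes, so that its value is uncertain.

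The genes called differed in base composition and length, which moved with the groups. The transcripts of genes with a positive difference had a median GC content of 45.1% and a median length of 1814 bases, and those with a negative difference 54.5% and 816.2 bases, where all genes tested had 50.1% and 1218 bases. Of 2576 genes in the quintile poorest in GC (31.86% to 45.04%) 56.4% had a positive and 2.41% a negative difference. Of the 2576 genes in the quintile richest in GC (55.76% to 70.69%) 3.03% were positive and 45.5% negative. The GC trend of a library, the median log2 deviation of the richest minus that of the poorest quintile, was 0.29 to 1.22 with oxLDL + pNaKtide and -0.56 to -0.09 with oxLDL. It was -0.19 to 0.06 with IS + pNaKtide and -0.46 to -0.19 with IS, except for 0.60 in IS replicate 4. When offsets took out the trends over GC content and length in each library, 1710 genes had a positive and 2355 a negative difference, 2943 (46.1%) of the 6381 remained called in the same direction, and oxLDL still had 7708 genes called.

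**Figure D5:**
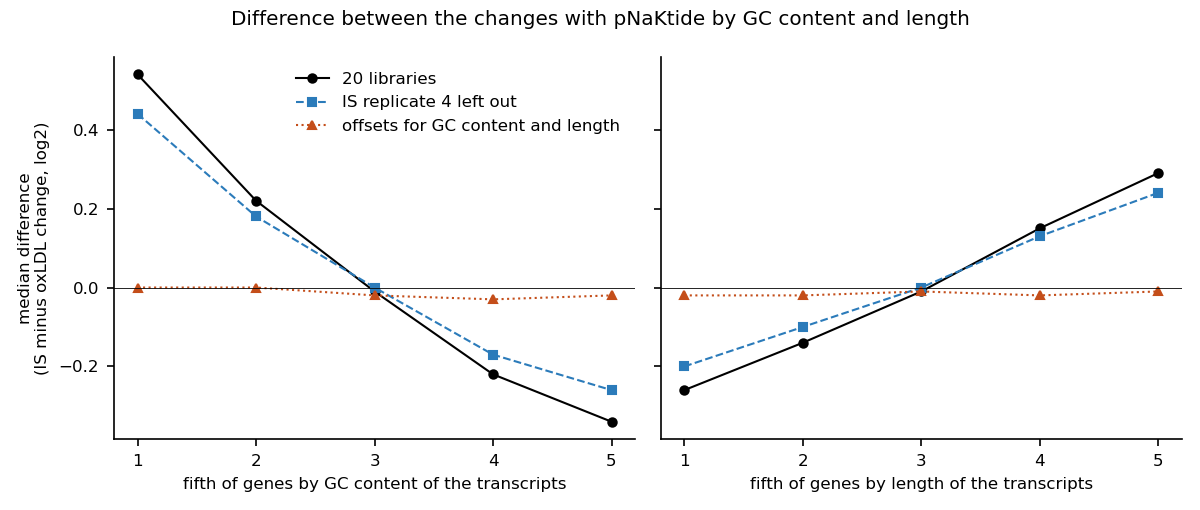
Median difference between the changes with pNaKtide (IS minus oxLDL, log2) in quintiles of genes by GC content (left) and by length (right) of their transcripts, for the fit to 20 libraries, without IS replicate 4 and with offsets for GC content and length. The median falls from 0.54 to -0.34 over the GC quintiles and rises from -0.26 to 0.29 over the length quintiles, and is within 0.03 of 0 with the offsets.

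With these offsets the median differences were -0.49 for ribosomal proteins (58 of 79 negative), -0.35 for complex I, -0.25 for complexes II to V, -0.24 for Nrf2 targets, -0.28 for the proteasome and 0.22 for the Zfp genes (64 positive, 8 negative). They were 0.12 for TLR4 and NF-κB genes (10 positive, 2 negative), 0.26 for the LIF and IL6 receptor list and 0.34 for glucocorticoid-responsive genes. The ubiquitin list lost its direction, with 10 genes each way and a median of -0.05, and the mitochondrial transcripts moved most, to a median of -1.22 with 11 of 13 negative. Creb1 (0.63), Chuk (0.70), Tlr4 (0.46) and Src (0.52) stayed past the threshold. Cdkn1a (-0.17) did not, and Cd36 turned to -0.32 (adjusted p = 0.0885, edgeR), which is a call in the opposite direction. Of the 20 genes named for the size of their differences, Iigp1 and Hist1h2al lost their call, and all 20 differences were smaller in size. Ogn was then at 1.12, Lpar4 and Aspn at 0.56, Arhgap5 at 0.59, Trim23 at 0.55 and Dsel at 1.28, while Cenpm was at -1.15, Scand1 at -0.92, H2afj at -1.05 and Cisd3 at -1.02. Of the list members and the genes chosen by their arms, calls were also lost for S100a4 (-0.19), Timp1 (-0.52), Zyx (-0.18), Scarb1 (-0.14), Cebpg (0.40), Psmc6 (0.18), Itch (0.16), Phlda3 (-0.18), Top2a (0.28), Rpph1 (-4.48) and Pimreg (-0.41), beside Pik3ca, Akt2, Nox4, Lamp2 and Tonsl given above. Pparg and Fabp4 gained one.

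The counts of several lists also moved with these settings. Without IS replicate 4 the negative calls went from 4 to 2 in matrix proteoglycans and glycoproteins, from 2 to 1 in the glucocorticoid list, the clock genes and the noncoding RNAs, from 5 to 3 in the TCA cycle and from 1 to 0 in the mitochondrial transcripts. The positive calls went from 5 to 3 in the immediate early genes, from 2 to 1 in replication and mitosis and from 1 to 0 in the ATF4 targets. Adipocyte genes then had 9 negative calls, cholesterol synthesis 6, and ER chaperones 6 positive calls. With the offsets, negative calls numbered 8 in adipocyte genes, 1 in preadipocyte genes, 3 in ATF4 targets, 2 in the TCA cycle, 1 in insulin signaling and 0 in p53 targets and noncoding RNAs. Positive calls numbered 6 in ER chaperones, 4 in insulin signaling, 2 in lysosome and autophagy, 0 in replication and mitosis, and 9 in the immediate early genes.

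Scaling by library size alone, in which the median difference of all genes moved from 0.04 to 0.25, gave 5214 positive and 1697 negative calls. Under that scaling the medians of lists close to 0 crossed it, to 0.16 for cholesterol synthesis, 0.18 for the TCA cycle, 0.12 for Na,K-ATPase genes, 0.11 for preadipocyte genes, 0.07 for replication and 0.05 for mitochondrial transcripts, and the adipocyte genes were at -0.01. The balance of calls also turned under that scaling for collagens (6 positive, 2 negative), ATF4 targets (3 positive, 2 negative) and the mitochondrial transcripts (1 positive, 0 negative), while the lists with equal counts became positive on balance, namely Src family kinases and caveolae (8 positive, 2 negative) and the TCA cycle (8 positive, 3 negative). With the offsets the ATF4 targets were at 0.02, Na,K-ATPase genes at 0.11, preadipocyte genes at 0.04, aryl hydrocarbon receptor genes at -0.08 and noncoding RNAs at -0.07, each on the other side of 0 from its value over the 20 libraries.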

How the data were processed

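RNA of 3T3-L1 adipocytes in 4 groups of 5 libraries was analysed. The authors made the counts by trimming paired-end reads (Trimmomatic 0.38), alignment to GRCm38 (HISAT2 2.1.0) and counting reads per gene, without normalization and without pooling replicates, and these counts, as deposited, gave all results. The FPKM values deposited by the authors, scaled for length and depth after DESeq2 1.20.0, were used for 1 alternative. The counts the authors normalized by size factors were not used. Which annotation release was counted, and whether by strand, is not given in the sources used here. Of 54232 genes, 54079 were matched to GENCODE M21 of GRCm38 for symbols, GC content and length (median over transcripts).

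Genes whose counts summed to more than 14 over these 20 libraries were fitted with edgeR 4.0.16 (R 4.3.3, TMM, robust quasi-likelihood, 4 groups, two-sided), with a BH-adjusted p threshold of 0.1 over all 19338 genes tested. The common biological coefficient of variation was 13.4%. The gene values are TMM-normalized CPM, and log2 CPM used a prior count of 2. SEs are the log2 value divided by the root of the F statistic. Depth was 6945498 to 15159877 counts per library. The members, gene lists and named genes were chosen with earlier results of these data known, so that lists are described by counts and medians, with no test. Named were the 10 genes of largest difference in each direction (called, also without IS replicate 4, mean log2 CPM of at least 1, groups not overlapping in an arm, without predicted, mitochondrial and Zfp genes), 18 genes by name, in each list the called gene of smallest p in each direction, and at most 5 genes each with opposite signs in the arms or a larger change under IS. A few of the named genes are counted but not reported here by name.

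Alternatives were DESeq2 1.42.0, limma 3.58.1 voom with quality weights, RLE factors, library size alone, other count filters, an adjusted p of 0.05, all 30 libraries in 6 groups, limma-trend on log2(FPKM + 1) where the mean FPKM reached 0.5, a replicate block, offsets for trends over GC content and length (mgcv 1.9.3), and fits that left out 1 library at a time. Chosen after seeing the data were leaving out IS and oxLDL + pNaKtide replicates 4 together, the offsets without IS replicate 4, and the comparisons of IS with oxLDL. Of 100 genes simulated with a 1.5-fold and 100 with a 2-fold difference among 19057 genes, edgeR called 41 and 88 for the contrast, with 13 false calls. Whether these rates hold for the libraries here, in which IS replicate 4 stood apart and counts moved with GC content, was not tested. No 2 libraries of a group were duplicates (lowest chi-square per degree of freedom 1.3 over 40 pairs). Figures used Python 3.11.15 with matplotlib 3.10.9.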

Additional observations from a re-analysis of the deposited data

Results flagged for a closer look

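The difference between the responses to pNaKtide was tested itself and passed the threshold of edgeR's quasi-likelihood test for 3177 genes in the positive and 3204 in the negative direction. Among the genes with the largest positive differences it was 2.05 for Ogn, 1.71 for Lpar4, 1.66 for Arhgap5, 1.62 for Aspn and for Iigp1, 1.57 for Gdap10, 1.51 for Trim23, 1.49 for Gprin3 and for Zbtb26, and 1.47 for Dsel. Among the largest negative differences it was -1.58 for Cenpm, -1.57 for Scand1, -1.45 for Hist2h2ac, -1.43 for H2afj, -1.42 for Sez6l2, -1.40 for Tmem160, -1.39 for Hist1h2al and for Cisd3, -1.31 for Yjefn3, and -1.27 for Reep6. For the genes fixed by name it was 0.93 for Creb1, 0.98 for Chuk, 1.10 for Tlr4, 0.62 for Cd36, 0.36 for Src and -0.42 for Cdkn1a.

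In the lists of signaling, positive differences were those of Yes1 (1.46), Smad1 (0.84), Tnfaip3 (0.83), Socs6 (0.81), Fgfr2 (0.51), Pik3ca (0.62), Tiparp (0.96), Nr3c1 (0.86), Klf6 (0.93), Bhlhe41 (0.71), Eif2ak3 (0.70) and Nox4 (0.74). Negative differences there were those of Cavin3 (-0.64), Tgfb1 (-1.14), Nfkb2 (-0.51), Akt2 (-0.51), Mt1 (-0.73), Jund (-0.94), Dbp (-0.80) and Xbp1 (-0.36). In the lists of metabolism, mitochondria and protein turnover, Sc5d (0.83), Abcg1 (0.57), Vldlr (0.54), Gclc (0.53), Cebpg (0.49), Ndufs1 (0.59), Idh1 (0.63), Psmc6 (0.71), Itch (0.77) and Lamp2 (0.81) were positive. Dgat1 (-0.62), Fdps (-0.64), Nr1h2 (-0.81), Scarb1 (-0.46), Keap1 (-0.49), Phgdh (-0.70), Ndufa3 (-1.08), Cox5b (-0.91), mt-Co1 (-0.49), Ogdh (-0.66), Rps2 (-1.10), Psmc2 (-0.45), Ube2l3 (-0.48) and Map1lc3a (-1.02) were negative. In the lists of matrix, cell identity and cell cycle, Ebf2 (0.87), Col4a5 (0.85), Adamts1 (0.61), Cald1 (0.50), Cdkn1b (1.09), Top2a (0.63) and Zfp993 (1.65) were positive, and S100a4 (-0.49), Col6a2 (-0.80), Prelp (-0.64), Timp1 (-0.72), Zyx (-0.59), Phlda3 (-0.54), Birc5 (-0.62), Zfp771 (-0.85) and Rpph1 (-5.41) negative. Of the genes with opposite signs or a larger change under IS, Epm2a (0.75), Pdk1 (0.72) and Ndrg1 (0.85) were positive, and Nudt17 (-0.88), Tonsl (-0.65), Pimreg (-0.77) and Ear1 (-0.71) negative.

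A library stood apart from the other 4 of its group, by Dixon's criterion at the 95% level, in 78 of 460 sets of 5 values tested, where chance gives about 1 in 20 for independent sets, and these sets share libraries and are not independent. IS replicate 4 made up 50 of the 78, oxLDL + pNaKtide replicate 4 made up 11 and IS + pNaKtide replicate 2 made up 7. On the first principal component the scores of IS replicate 4 and IS + pNaKtide replicate 2 were 36.1 and 5.35. IS replicate 4 had a GC trend of 0.60 and a length trend of -0.31, and IS + pNaKtide replicate 2 a length trend of -0.09 (log2, highest minus lowest quintile). Ribosomal protein genes took 3.78% of the counts in IS replicate 4 and 4.73% in oxLDL + pNaKtide replicate 4, which detected 17859 genes.

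IS replicate 4 was the lowest of its group in CPM of Lpar4 (4.45), Aspn (76.4), Trim23 (6.49), Dsel (6.78), Chuk (22.8), Yes1 (9.49), Smad1 (7.55), Tnfaip3 (8.91), Socs6 (9.49), Pik3ca (28.8), Vldlr (117), Itch (46.2), Cdkn1b (15.5), Nr3c1 (45.3) and Bhlhe41 (6). Of the genes named for a large negative difference it was the highest in Cenpm (4.94), Scand1 (60.5), Hist2h2ac (17.6), H2afj (172), Tmem160 (36.5), Hist1h2al (53), Cisd3 (8.91), Yjefn3 (13.6) and Reep6 (55.3). Of the list members it was the highest in Cavin3 (126), Dgat1 (321), Prelp (121), Zyx (137), Tgfb1 (93.5), Nfkb2 (81.6), Akt2 (337), Nr1h2 (115), Scarb1 (366) and Keap1 (70.7). It was also the highest in Ndufa3 (114), Cox5b (297), mt-Co1 (18500), Ogdh (570), Rps2 (553), Psmc2 (197), Ube2l3 (221), Map1lc3a (113), Mt1 (636) and Jund (45.6). These genes had a positive difference where IS replicate 4 was the lowest and a negative difference where it was the highest.

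OxLDL + pNaKtide replicate 4 was the lowest of its group in CPM of Socs6 (5.14), Fgfr2 (63.5), Vldlr (82.3) and Nox4 (1.37), and the highest in S100a4 (153), Timp1 (68), Ndufa3 (185), Ube2l3 (254) and Mt1 (955). IS + pNaKtide replicate 2 was the lowest in Eif2ak3 (23) and Itch (47.1) and the highest in Cdkn1a (272), Map1lc3a (88.1) and Zfp771 (16.1), and replicate 1 was the lowest in Scarb1 (289). OxLDL replicate 3 was the lowest in Adamts1 (271) and the highest in Fabp4 (3140) and mt-Co1 (16200), and oxLDL replicate 4 the highest in Zyx (99.8) and Jund (31.1). OxLDL + pNaKtide replicate 1 was the highest in Gclc (18) and Rpph1 (16.8), replicate 5 in Il6 (0.102), and IS replicate 5 in Epm2a (4.25).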

How the results depend on the processing

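With all 20 libraries the alternatives called 4065 to 7340 genes in the contrast, of which the offsets shared 2943 with the 6381, library size alone 4870 and voom 6005. Scaling by library size alone gave 5214 positive and 1697 negative differences, 2750 genes higher and 7828 lower under oxLDL, and, between the agents, 6461 higher and 1733 lower with pNaKtide. Offsets for GC content and length gave 1710 positive differences and 2509 genes higher between the agents with pNaKtide, and with IS replicate 4 also left out 1345 positive and 1876 negative differences. Leaving out IS and oxLDL + pNaKtide replicates 4 together gave 2084 negative differences, and 82 genes higher and 45 lower under IS. Under IS, DESeq2 gave 12 higher genes, limma voom with quality weights 494 higher and 482 lower, the RLE factors, more than 14 counts in every library and filterByExpr 1 each, and the offsets 2, or 10 without IS replicate 4. Between the agents without pNaKtide, the genes higher and lower were 19 and 31 with DESeq2, 73 and 99 with voom, 6 and 6 with more than 14 counts in every library, 0 and 0 at an adjusted p of 0.05, 2 and 1 with all 30 libraries, 5 and 7 with the offsets (the same without IS replicate 4), and 4 and 6 without both replicates 4. Library size alone gave 4 higher there and limma-trend on FPKM 3. The cause of these shifts was not tested.

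With 1 library left out, positive differences numbered 2457 to 3703 and negative ones 2561 to 3493, with the lowest total (5018) without oxLDL + pNaKtide replicate 4. Genes higher under IS numbered 0 to 1. Between the agents without pNaKtide 0 to 5 were higher and 0 to 5 lower, with 0 and 0 without IS replicates 1, 2 or 3 or oxLDL replicates 1, 2, 4 or 5, 4 and 5 without IS replicate 5, and 5 and 2 without oxLDL + pNaKtide replicate 3. Of the named genes, Cebpg, Pimreg, Rpph1 and mt-Co1 lost their call in at least 1 of these fits.

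The correlations of the deviations of same-numbered libraries ran from -0.421 to 0.691. For replicate 4 they were 0.691 between IS and oxLDL and 0.647 between oxLDL and oxLDL + pNaKtide. They were -0.303 between IS and IS + pNaKtide and -0.297 between IS + pNaKtide and oxLDL + pNaKtide. Whether the replicate numbers pair the libraries was not tested further, and the replicate block is given here only. It called 7243 genes in the contrast, 6329 of them shared, and gave 4 genes higher between the agents without pNaKtide.

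Differences that changed sign were mostly of genes near 0. With the offsets, and with the offsets without IS replicate 4, Cd36 was at -0.32 and -0.24, Pik3ca at -0.24 and -0.19, Cebpa at 0.03 and 0.04, Fabp4 at -0.77 and -0.64, Plin1 at 0.20 and 0.14, and Lpl at -0.23 and -0.16, and Prkca was at 0.00 in the second. With library size alone Cebpa was at 0.03, Pparg at 0.10 and Plin1 at 0.13. Nos3 was at 0.10 with voom. Without both replicates 4, Fabp4 was at -0.01 and Nos3 at 0.11. With 1 library left out Fabp4 ranged from -0.04 to 0.09, Lep from -0.70 to 0.09 and Nos3 from -0.56 to 0.05. Low counts go with the large SEs of Lep, Nos3 and Il6. In simulation, among genes with higher counts than these, 41 of 100 genes with a 1.5-fold difference were called, so that smaller differences can be missed.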
